A study of Homo sapiens with 6 samples.

Results

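The genes described here are 9 regulators of cholesterol supply, chosen by symbol from the 26255 genes listed in each sample: *INSIG1*, *INSIG2* and *SCAP*, the sterol-sensing apparatus of the endoplasmic reticulum; *SREBF1* and *SREBF2*, which encode the transcription factors SREBP1 and SREBP2; *MBTPS1* and *MBTPS2*, the proteases that release them; *MYLIP*, which limits lipoprotein uptake; and *ABCA1*, a cholesterol exporter. RNA was sequenced from 22RV1 cells, a human castration-resistant prostate cancer (CRPC) line. The cells were kept in full medium with fetal bovine serum, which supplies androgen and growth factors as well as lipoproteins, and were exposed for 24 h to DMSO vehicle (3 samples) or to bruceantin (BCT), a plant quassinoid, at 10 nM (3 samples). All samples come from this single cell line at a single dose and time, and the labels do not say whether the 3 samples of a group were separate cultures, so the p-values measure the spread between these samples, which may be technical.

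SREBPs are made as precursors in the membrane of the endoplasmic reticulum, where each binds SCAP. When sterols are plentiful, SCAP is held back by INSIG1 or INSIG2; when sterols run low, SCAP carries the precursor in COPII vesicles to the Golgi, where site-1 protease (*MBTPS1*) and then site-2 protease (*MBTPS2*) cut it and free the part that enters the nucleus. Nuclear SREBP2 mainly switches on cholesterol synthesis and lipoprotein uptake, and SREBP1 mainly fatty acid synthesis, while INSIG1 is itself a target, so that the pathway feeds back on itself. Oxysterols act in the other direction through the liver X receptors (LXR), whose targets include *ABCA1*, *MYLIP* and *SREBF1*. Prostate cancer cells are known for active lipid synthesis, part of it under androgen control.

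Of the 9 genes, *INSIG1*, *SREBF2* and *SREBF1* fell in BCT-treated cells, *MYLIP* rose, and *INSIG2*, *SCAP*, *MBTPS1* and *MBTPS2* did not reach the fold change required for a call. *INSIG1* fell furthest, to a mean level 25.2-fold lower than with DMSO, whereas the mRNA of SCAP, its binding partner, was 1.17-fold lower. *ABCA1* was below 1 FPKM in every sample and was not tested. Levels are FPKM, the fragments assigned to a gene scaled to its transcript length and to the reads mapped in the sample, as deposited by the authors. Changes are log2 fold changes of BCT over DMSO on log2(FPKM + 0.1), where the change of a weakly expressed gene is understated, and limma tested the 12729 genes whose mean reached 1 FPKM. A call required a log2 fold change beyond 0.85 in either direction and a Benjamini-Hochberg FDR below 0.05. By this rule 17.8% of the tested genes were called lower and 13.9% called higher, against 3 and 1 of the 8 members tested. The FDR alone was passed by 82.1% of the tested genes and by all 8 of these members, so passing it says little by itself. The sample values of the groups did not overlap in 7 of the 8 members, against 85.3% of the tested genes. In bulk RNA, fewer cells that express a gene and less of its RNA per cell cannot be told apart.

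The number of reads behind an FPKM value is unknown here. Among genes of low value, the most common ratio between samples put the relative depth at 0.877 to 1 with DMSO and 1.05 to 1.14 with BCT, taking DMSO replicate 1 as 1. The FPKM sum of a sample was 1169649 to 1572321 with DMSO and 757534 to 799838 with BCT, and a single short RNA, *MIR6087*, held 43.5% to 55.3% of it with DMSO and 31.7% to 32.5% with BCT. Rescaling all samples to equal sums raises the median change over the tested genes from -0.04 to 0.72 on the log2 scale, and leaving *MIR6087* out of the sums raises it to 0.34. Values are therefore given as deposited, and the effect of the scaling is stated wherever it turns a direction. BCT replicate 1 was the BCT sample nearest to the DMSO mean in 68.5% of all tested genes, and in 6 of these 8 members. The 9 prostate epithelial markers examined were above 1 FPKM in every DMSO sample, and 3 of them were called lower and 2 higher with BCT. Of 8 markers of leukocytes, endothelium and fibroblasts, 6 were below 1 FPKM in every sample, among them *PTPRC*, *PECAM1* and *COL1A2*. The sum of the 8 was 3.59 to 4.80 FPKM with DMSO and 11.3 to 14.7 FPKM with BCT, carried by *CD68* and *COL1A1*. The part of these transcripts in the results was not tested.

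The promoters of the 4 called members are shown because SREBP acts through sites in DNA and because these genes moved in different directions. Sites for LXR were not searched for. All 9 members have a RefSeq promoter window on GRCh38.p14 (not the hg19 build of the files), 300 bases long, from 250 bases before the transcription start to 50 after it. Capitals mark matches, on either strand, to a sterol regulatory element (SRE, TCACNCCAC), a CCAAT box (CCAAT, or ATTGG on the other strand), which is bound by the SREBP partner NF-Y, or an E-box (CACGTG). These motifs occur in 1.13%, 34.6% and 7.26% of all 35116 windows, respectively. The motifs do not overlap each other in the windows shown, which are printed 5′ to 3′ on the strand of the gene.
SREBF2 (chr22:41832855-41833154, plus strand): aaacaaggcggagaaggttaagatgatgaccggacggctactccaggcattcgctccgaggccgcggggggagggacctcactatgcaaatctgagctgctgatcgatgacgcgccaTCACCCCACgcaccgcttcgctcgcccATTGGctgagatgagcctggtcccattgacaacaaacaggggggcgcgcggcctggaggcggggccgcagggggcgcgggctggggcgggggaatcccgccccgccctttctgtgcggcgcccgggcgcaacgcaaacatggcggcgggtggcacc
INSIG1 (chr7:155297628-155297927, plus strand): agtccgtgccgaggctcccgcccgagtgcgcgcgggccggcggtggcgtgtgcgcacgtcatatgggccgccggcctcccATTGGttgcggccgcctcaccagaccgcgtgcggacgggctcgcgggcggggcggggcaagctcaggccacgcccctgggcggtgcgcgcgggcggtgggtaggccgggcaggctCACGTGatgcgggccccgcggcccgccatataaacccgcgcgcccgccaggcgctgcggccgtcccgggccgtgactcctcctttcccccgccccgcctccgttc
SREBF1 (chr17:17836937-17837236, minus strand): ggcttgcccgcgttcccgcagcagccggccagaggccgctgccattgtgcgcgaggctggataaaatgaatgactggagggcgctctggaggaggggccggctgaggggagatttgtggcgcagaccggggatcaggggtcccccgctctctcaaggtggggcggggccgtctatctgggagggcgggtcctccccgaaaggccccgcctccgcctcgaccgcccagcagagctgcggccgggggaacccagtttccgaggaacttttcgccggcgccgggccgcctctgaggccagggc
MYLIP (chr6:16128836-16129135, plus strand): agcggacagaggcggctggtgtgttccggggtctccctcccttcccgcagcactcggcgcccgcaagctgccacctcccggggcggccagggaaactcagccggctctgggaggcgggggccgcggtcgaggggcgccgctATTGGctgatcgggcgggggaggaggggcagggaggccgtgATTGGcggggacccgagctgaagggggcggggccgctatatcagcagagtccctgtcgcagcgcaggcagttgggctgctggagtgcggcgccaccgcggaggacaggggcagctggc
Among the 9 members, only the *SREBF2* window held the SRE letters, with its leftmost base at position -133 from the transcription start, followed by a CCAAT box at -106. The *INSIG1* window held a CCAAT box at -170 and an E-box at -55. The *MYLIP* window held CCAAT boxes at -109 and -68, and the *SREBF1* window held none of the 3 motifs. A CCAAT box was thus present in windows of genes that fell and of a gene that rose. A match is a description of letters, and a missing match applies to this window alone.

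INSIG1 and INSIG2 are related membrane proteins that hold SCAP in the endoplasmic reticulum and also direct the sterol-dependent breakdown of the rate-limiting enzyme of cholesterol synthesis. *INSIG1* lies on chromosome 7 from 155089486 to 155101945 of hg19 on the plus strand. It was at 139.6, 114 and 122 FPKM in the DMSO samples and at 7.93, 3.28 and 3.71 FPKM in the BCT samples. The groups were far apart, and the highest BCT value was that of replicate 1. The means were 125 ± 13.3 and 4.97 ± 2.57 FPKM (SD, n = 3 each). On the log2 scale the change was -4.73 with a standard error of 0.29 (limma, adjusted p = 1.8e-06). Of the 12729 tested genes, 10 had a lower log2 fold change.

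*INSIG2*, on chromosome 2 from 118846050 to 118867597 on the plus strand, was at 5.28, 4.64 and 4.67 FPKM with DMSO, against 3.03, 2.63 and 3.04 FPKM with BCT. Every BCT sample was below every DMSO sample, but the shift was small beside that of *INSIG1*. Its log2 fold change was -0.73 (95% interval -0.94 to -0.52), below the fold required for a call although the interval reaches past it, and after rescaling to equal sums it was 0.02 (95% interval -0.34 to 0.38), a change of sign.

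The balance between the INSIG genes can be read within each sample, where a single scaling factor for the sample cancels. The ratio of *INSIG1* to *INSIG2* was 26.4, 24.5 and 26.1 in the DMSO samples and 2.62, 1.25 and 1.22 in the BCT samples. Expressed as a share of the summed INSIG FPKM, *INSIG2* made up 3.64% to 3.92% with DMSO and 27.6% to 45.0% with BCT. The log2 ratio was lower by 4.02 on average with BCT, and lower in all 3 BCT samples than in any DMSO sample; the two-sided exact permutation test gave p = 0.1 (adjusted p = 0.15 over 3 ratios), and 0.1 is the smallest p that 3 samples against 3 allow. The least shifted BCT sample was again replicate 1.

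**Figure D1:**
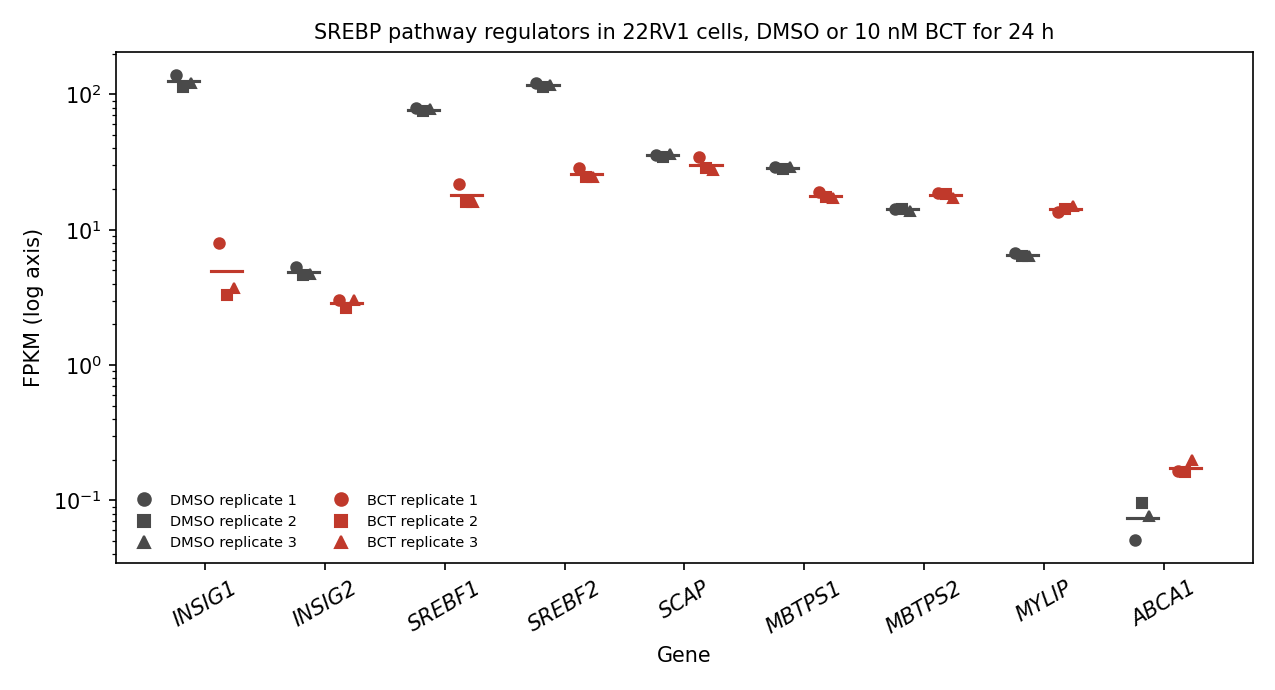
FPKM of the 9 genes in each sample on a log axis, with DMSO in grey and BCT in red, a symbol for each replicate and a bar at the group mean. *INSIG1*, *SREBF1* and *SREBF2* lie clearly lower with BCT, *MYLIP* lies higher, and the *SCAP* values of the groups overlap.

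*SREBF1* and *SREBF2* encode the precursors themselves. *SREBF2*, on chromosome 22 from 42229083 to 42303312 on the plus strand, was at 121, 114 and 117 FPKM with DMSO, against 28.8, 24.4 and 24.5 FPKM with BCT. The groups were well separated and the spread within each was small. The mean fell 4.54-fold, from 117 ± 3.45 to 25.9 ± 2.50 FPKM (SD, n = 3 each), or -2.18 on the log2 scale with a standard error of 0.071 (limma, adjusted p = 2.8e-07).

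*SREBF1*, which gives rise to the SREBP1a and SREBP1c forms that a gene-level value cannot separate, was at 79.4, 74.8 and 77.5 FPKM with DMSO, against 22.0, 16.1 and 15.9 FPKM with BCT. As with *SREBF2*, all BCT samples lay far below all DMSO samples, with replicate 1 the highest. The mean fell 4.29-fold, from 77.2 ± 2.29 to 18.0 ± 3.43 FPKM (SD, n = 3 each), or -2.11 on the log2 scale with a standard error of 0.12 (limma, adjusted p = 1.3e-06). The deposited interval of *SREBF1*, on chromosome 17 from 17584787 to 17740325, also spans its convergent neighbor *RAI1*, whereas GENCODE places *SREBF1* from 17713713 to 17740316 on the minus strand of GRCh37, with 556 of its 8234 exon bases shared with exons of *RAI1*. The library kit does not mark strand, so reads from the shared part cannot be told apart. *RAI1* itself was at 6.77, 6.83 and 6.97 FPKM with DMSO, against 7.40, 7.05 and 7.16 FPKM with BCT, a log2 fold change of 0.07 (95% interval -0.06 to 0.20), an interval that includes 0 beside the fall of *SREBF1*.

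The pair of SREBF genes kept nearly the same proportion. The ratio of *SREBF1* to *SREBF2* was 0.655, 0.655 and 0.664 with DMSO and 0.763, 0.661 and 0.650 with BCT. The DMSO values lay inside the range of the BCT values, and BCT replicate 1 was the highest of all. The log2 ratio differed by 0.07 on average (two-sided exact permutation test, p = 0.7, adjusted p = 0.7 over the 3 ratios), and by -0.01 without BCT replicate 1, so no difference larger than the spread was detected. The microRNA genes inside these loci, *MIR33A* in *SREBF2* and *MIR33B* in *SREBF1*, were listed at 0 in all 6 samples, in libraries whose kit is not made for small RNAs.

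SCAP escorts the precursors to the Golgi. *SCAP*, on chromosome 3 from 47455184 to 47517445 on the minus strand, was at 35.8, 34.4 and 36.2 FPKM with DMSO, against 34.4, 28.8 and 27.4 FPKM with BCT. BCT replicate 1 lay inside the DMSO range, and the other BCT samples lay below it. The log2 fold change was -0.24 (95% interval -0.43 to -0.04, adjusted p = 0.027 from limma), far from a call, and its sign turned after rescaling to equal sums (0.53) and to equal sums without *MIR6087* (0.15). The adjusted p of *SCAP* from limma was above the FDR threshold in the latter scaling (0.081), after quantile normalization (0.069) and without DMSO replicate 1 (0.073), DMSO replicate 3 (0.079), BCT replicate 2 (0.085) or BCT replicate 3 (0.094).

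Because *SCAP* differed so little, the other members can be set against it within each sample. The FPKM ratio of *INSIG1* to *SCAP* was 3.90, 3.31 and 3.37 with DMSO and 0.231, 0.114 and 0.135 with BCT. For *SREBF2* the ratio to *SCAP* was 3.23 to 3.39 with DMSO and 0.837 to 0.894 with BCT, and for *SREBF1* it was 2.14 to 2.22 and 0.560 to 0.639. In every DMSO sample the transcripts of *INSIG1*, *SREBF2* and *SREBF1* each exceeded that of *SCAP* per length, and in every BCT sample *SCAP* exceeded each of them. These are ratios of mRNA and not of protein.

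The 2 proteases that cut SREBP differed from each other in sign. *MBTPS1*, a serine protease of the Golgi, lies on chromosome 16 from 84087366 to 84150548 on the minus strand and was at 29.2, 28.0 and 28.9 FPKM with DMSO, against 18.9, 17.6 and 17.2 FPKM with BCT. *MBTPS2*, a zinc protease that cuts within the membrane, lies on chromosome X from 21857656 to 21903541 on the plus strand and was at 14.3, 14.3 and 13.8 FPKM with DMSO, against 18.8, 18.5 and 17.1 FPKM with BCT. In neither gene did the groups overlap. The log2 fold change was -0.68 (95% interval -0.80 to -0.56) for *MBTPS1* and 0.35 (95% interval 0.23 to 0.48) for *MBTPS2*, and neither reached the fold required for a call. With samples rescaled to equal sums the change of *MBTPS1* was 0.08, of the opposite sign, and *MBTPS2* was called higher at 1.12.

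The ratio of *MBTPS1* to *MBTPS2*, which a single scaling factor per sample cannot change, was 2.04, 1.96 and 2.09 with DMSO and 1, 0.952 and 1.01 with BCT. It was lower in all 3 BCT samples than in any DMSO sample, by 1.04 on the log2 scale on average (two-sided exact permutation test, p = 0.1, adjusted p = 0.15 over the 3 ratios). *YY2*, which overlaps *MBTPS2* in GENCODE, was at 2.64 to 2.92 FPKM with DMSO and 2.59 to 2.81 FPKM with BCT, with overlapping groups.

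**Figure D2:**
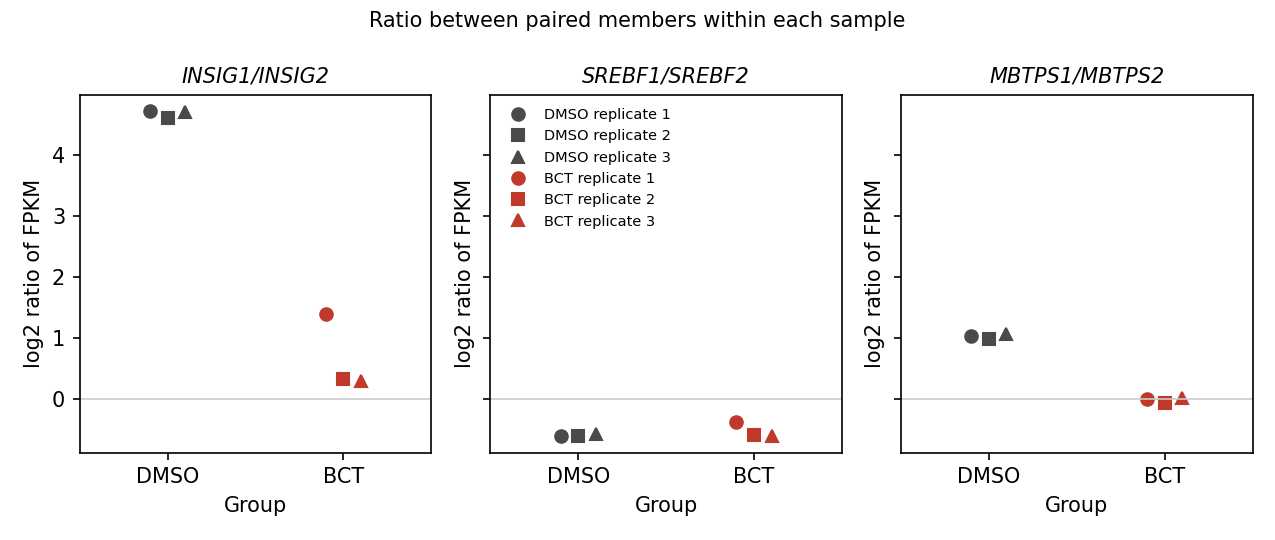
Log2 ratio of FPKM between the members of each pair in each sample, on a shared axis, with DMSO in grey and BCT in red and a symbol for each replicate. The ratios of *INSIG1* to *INSIG2* and of *MBTPS1* to *MBTPS2* separate the groups, by 4.02 and 1.04 on average, and the ratio of *SREBF1* to *SREBF2* does not.

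MYLIP, also called IDOL, is an E3 ubiquitin ligase that marks lipoprotein receptors for breakdown, and its gene is an LXR target. *MYLIP*, on chromosome 6 from 16129317 to 16148478 on the plus strand, was at 6.69, 6.45 and 6.35 FPKM with DMSO, against 13.5, 14.2 and 15.0 FPKM with BCT. All BCT samples were higher than all DMSO samples, and the spread within each group was narrow. It rose 2.19-fold, from 6.50 ± 0.175 to 14.2 ± 0.757 FPKM (SD, n = 3 each), or 1.12 on the log2 scale with a standard error of 0.060 (limma, adjusted p = 1.3e-06).

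ABCA1 moves cholesterol out of cells to lipid-poor apolipoproteins and is the best known LXR target. *ABCA1*, on chromosome 9 from 107543284 to 107690527 on the minus strand, was at 0.051, 0.095 and 0.077 FPKM with DMSO, against 0.165, 0.161 and 0.198 FPKM with BCT. The BCT samples were all higher, but every value is close to the lower end of detection. With the filter on low values lifted, its log2 fold change was 0.66 (95% interval 0.34 to 0.98, adjusted p = 0.0042 from limma), which is no call. This value depends on the pseudocount, as it was 0.13 with a pseudocount of 1 and 1.16 with 0.01, where it passed both thresholds.

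**Figure D3:**
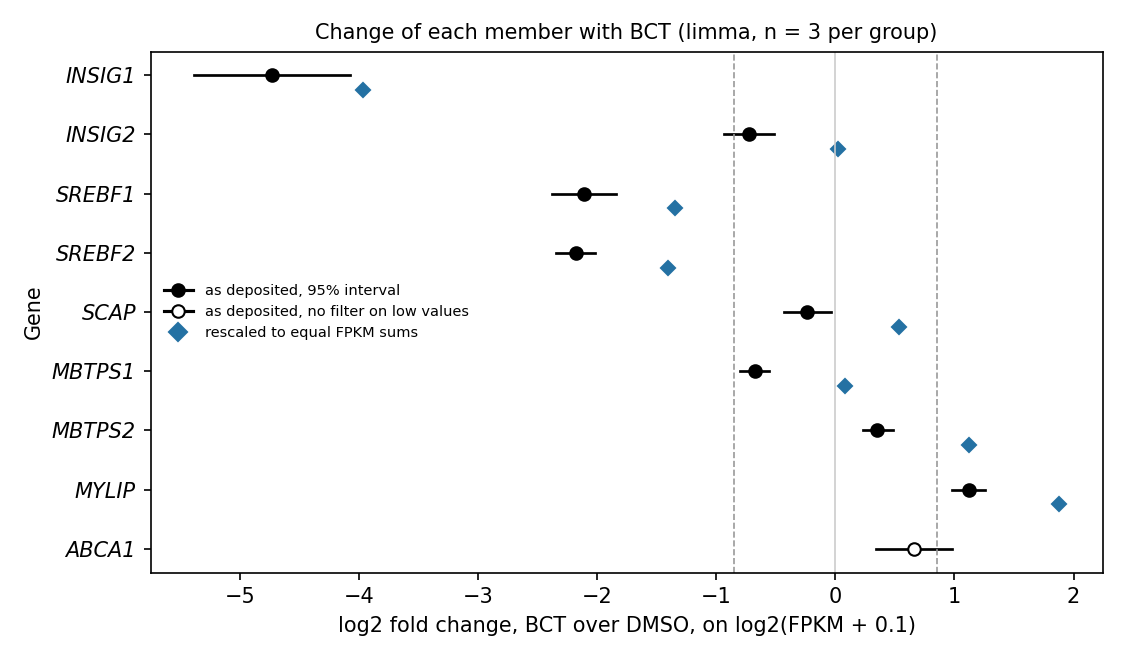
Log2 fold change of BCT over DMSO for each gene, as circles with 95% intervals from limma (n = 3 per group), and as diamonds after rescaling to equal FPKM sums; the open circle of *ABCA1* is from the fit with no filter on low values, and dashed lines mark the fold required for a call. *INSIG1*, *SREBF1* and *SREBF2* lie beyond the lower line and *MYLIP* beyond the upper line under both scalings, while the diamonds of *INSIG2*, *SCAP* and *MBTPS1* lie on the other side of 0 from their circles.

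Measured against the median of all genes in the same scaling, the order of the members hardly depended on the scaling. Across the deposited values, both rescalings to equal sums, scaling by median ratios and quantile normalization, the relative log2 fold change was -4.69 to -4.63 for *INSIG1*, -2.14 to -2.10 for *SREBF2* and -2.07 to -2.06 for *SREBF1*. It was -0.73 to -0.69 for *INSIG2*, -0.69 to -0.63 for *MBTPS1* and -0.22 to -0.19 for *SCAP*, all below the median of all genes. It was 0.31 to 0.40 for *MBTPS2* and 1.10 to 1.16 for *MYLIP*, both above it. A single factor per sample moves a gene and the median alike, so here quantile normalization is the only setting that could have shown a difference of another kind.

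The order of the levels changed with BCT. With DMSO, *INSIG1* was the highest member, with sample values that overlapped those of *SREBF2*, and then came *SREBF1*, *SCAP*, *MBTPS1*, *MBTPS2*, *MYLIP*, *INSIG2* and *ABCA1*, with no overlap between neighbors. With BCT, *SCAP* was highest and overlapped *SREBF2*, while *MBTPS2*, *SREBF1* and *MBTPS1* followed at means of 18.1, 18.0 and 17.9 FPKM with overlapping samples. Below them came *MYLIP*, *INSIG1*, *INSIG2* and *ABCA1*, each apart from its neighbors. *INSIG1* thus went from the top of the order to below *MYLIP*.

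The genes whose pattern over the 6 samples was most like that of *INSIG1*, members left out, were *ALAD*, *NRSN2*, *PDCD4*, *CABLES2* and *FKBP9*, each with a Pearson correlation of at least 0.9999 on log2(FPKM + 0.1). The likeness is of shape and not of size, as *ALAD* had a log2 fold change of -1.24 and *PDCD4* of -2.31. The points fall into the DMSO and BCT groups, and 15.9% of the tested genes had a correlation above 0.99, so the difference between the groups carries most of it.

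Other genes of the pathway were gathered in 7 lists written from general knowledge. Because rescaling to equal sums raises every value by the shift given above, uncalled list genes with small negative values change sign under it. Over all tested genes, 17.8% were called lower and 13.9% higher. Of 20 sterol synthesis genes, which are SREBP2 targets, 18 were called lower and 0 called higher. Their median was -1.83 on the log2 scale, against -0.04 for all tested genes. The furthest were *SQLE*, squalene epoxidase, at -3.76, *HMGCS1*, which makes HMG-CoA, at -3.01, *MSMO1* at -2.77 and *DHCR7*, the last enzyme of the Kandutsch-Russell route, at -2.52. In all 20 genes every BCT sample was below every DMSO sample, where 85.3% of all tested genes had groups that did not overlap. Among 10 fatty acid synthesis genes under SREBP1, 7 were called lower and 0 called higher, with a median of -1.46. They were led by the desaturases *SCD* at -3.72 and *FADS2* at -3.30, with *FADS1* at -1.99 and *ACLY*, which makes cytosolic acetyl-CoA, at -1.67. *GPAM*, an acyltransferase of glycerolipid synthesis in the same list, was at 0.34 and was not called.

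Lipoprotein uptake and cholesterol export from endosomes were covered by 23 genes, of which 20 were tested. Of these 20, 8 were called lower, against 17.8% of all tested genes, and 0 were called higher, against 13.9%. Their median was -0.61 on the log2 scale. *TMEM97*, a sterol-responsive partner of the lysosomal transporter NPC1, was at 51.0, 44.7 and 47.0 FPKM with DMSO, against 7.56, 5.03 and 5.45 FPKM with BCT, a log2 fold change of -2.98. On the log2 scale *STARD4*, a cytosolic sterol carrier, was at -2.35, *LIPA*, the lysosomal acid lipase that frees cholesterol from ingested lipoproteins, at -2.02, and *LRP8*, a lipoprotein receptor, at -1.80. The same list held genes of clathrin-mediated uptake, of which *AP2A1* was called lower at -1.25, while *CLTC* was at 0.60 and *AP2B1* at -0.13. *NPC1* was at 0.66 and *NPC2*, its soluble partner, was called lower at -1.76. The list thus held called genes in a single direction and uncalled genes on both sides of 0.

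For LXR, its partners and its other targets, 17 genes were listed and 13 tested, with 3 called lower, 1 called higher and a median of 0.22. Such counts are near the shares over all tested genes, 17.8% lower and 13.9% higher, and are no result about the list. The gene called higher was *NR1H3*, which encodes LXR alpha, at 6.57, 7.76 and 7.35 FPKM with DMSO and 12.5, 16.5 and 14.1 FPKM with BCT, a log2 fold change of 0.98. Those called lower were *SMPDL3A*, a phosphodiesterase, at -2.19, *LPCAT3*, which remodels phospholipids, at -1.0 and *PLTP*, a phospholipid transfer protein, at -0.90. *LPCAT3* and *PLTP* lost their call under both rescalings to equal sums, and *PLTP* also with a pseudocount of 1. The exporter *ABCG1*, at 0.536 to 0.616 FPKM with DMSO and 0.397 to 0.621 FPKM with BCT, was among the 4 genes too low to test.

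The remaining lists concern how SREBP travels and is turned over. Of 10 nuclear partners and turnover factors, 5 were called higher, against 13.9% of all tested genes, and 0 called lower, against 17.8%. The median of this list was 0.67. Those called higher included the deacetylase *SIRT1* at 2.07 and the acetyltransferases *CREBBP* at 1.64 and *EP300* at 1.60. The others were *FBXW7*, the receptor of a ubiquitin ligase that removes nuclear SREBP, at 0.92, and the Mediator subunit *MED15* at 0.90. *FBXW7* lost its call with a pseudocount of 1 (0.84) and *MED15* without BCT replicate 2 (0.82), leaving 4 called higher in each case. The NF-Y subunits in that list were at -0.34 for *NFYA*, 0.44 for *NFYB* and 0.19 for *NFYC*, none of them called. Of 12 genes of the COPII coat, which carries SCAP and SREBP out of the endoplasmic reticulum, 2 were called higher, *SEC31A* at 1.46 and *SEC24B* at 0.85, and 0 were called lower, with a median of 0.44. That count is near the 13.9% of all tested genes called higher and is no result about the coat, and *SEC24B* sat on the threshold and lost its call without DMSO replicate 1 or 3 and without BCT replicate 2 or 3. None of 10 ubiquitin ligases and extraction factors that act on INSIG or on sterol-regulated degradation was called. Among all tested genes, 17.8% were called lower and 13.9% higher. The log2 fold changes of these 10 genes ran from -0.78 for *UBE2G2* to 0.37 for *FAF2*. An FDR of 0.05 was passed by 8 of them, which is near the 82.1% of all tested genes and is no result about the list. Without BCT replicate 1, 1 of them was called lower.

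**Figure D4:**
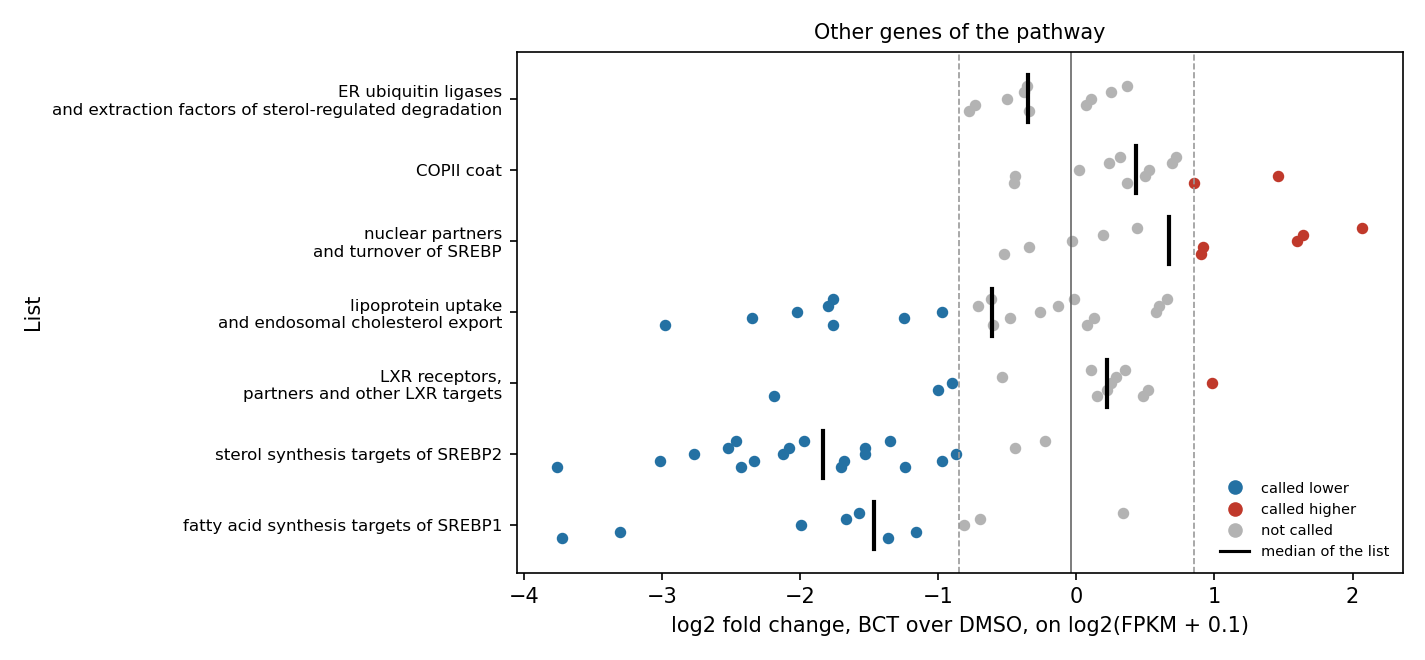
Log2 fold change of BCT over DMSO for every tested gene of the 7 lists, in blue where called lower, red where called higher and grey where not called, with a black bar at the median of each list, a thin line at the median of all tested genes and dashed lines at the fold required for a call. The sterol and fatty acid synthesis lists lie mostly beyond the lower line, with medians of -1.83 and -1.46. Beyond the upper line lie 5 of 10 nuclear partners and turnover factors. Among all tested genes, 17.8% were called lower and 13.9% higher.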

How the data were processed

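RNA-seq libraries (TruSeq RNA Library Prep Kit v2) of 3 DMSO and 3 BCT samples were sequenced as paired-end reads. The deposited FPKM values, 1 per gene and sample, were made by the authors with Trimmomatic (trimming), HISAT2 (alignment to hg19/GRCh37) and StringTie (assembly and quantification); the submitters' processing notes give Trimmomatic 0.38 and also list HTSeq. The annotation is not given in the sources used here. The files hold no read counts, so no count test was run and sequencing depth could be compared between samples but not stated.

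The 12729 genes whose mean over the 6 samples reached 1 FPKM were compared on log2(FPKM + 0.1). The fit used limma 3.58.1 (R 4.3.3) with trended eBayes variances and Benjamini-Hochberg adjustment over all of them. It was also run on values simulated from the gene means and spreads of these data, which checks the code and not the calls reported here. The fold and FDR thresholds are those of the study's results text; its methods use an FDR of 0.01, an alternative here. Ratios were compared by exact permutation tests (scipy 1.17.1). Samples were grouped by the labelled agent. The members, lists and tests were chosen with earlier results of these data known. Named genes are the members, up to 4 called genes of largest change per list, and the 5 genes most like *INSIG1*; the other list genes, the markers, *RAI1* and *YY2* were named after their values were seen. Deposited starts were raised by 1, since start plus 1 equals a GENCODE transcript start for 7961 of 22422 genes and the start itself for 857. Promoter sequences are from RefSeq (GRCh38.p14). Alternatives covered pseudocount, filter, scaling, FDR, variance trend, the replicate block and each sample left out.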

Additional observations from a re-analysis of the deposited data

How the results depend on the processing

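The calls of *INSIG1*, *SREBF1*, *SREBF2* and *MYLIP* held under every alternative run, and the 8 tested members kept their direction and whether they were called in 130 of 135 recomputed values. Changing the filter, the FDR threshold, the variance trend or the replicate block leaves a log2 fold change as it was. In those settings no direction could turn and no uncalled member could become called. *SCAP*, which was called under no alternative run, passed the FDR threshold in some settings and not in others, with an adjusted p from limma of up to 0.094. The exceptions to the 130 came from the scaling. Rescaled to equal sums, *INSIG2* (0.02), *SCAP* (0.53) and *MBTPS1* (0.08) changed sign and *MBTPS2* (1.12) was called, which made 2 members called higher; without *MIR6087* in the sums, *SCAP* (0.15) changed sign. Under these rescalings the adjusted p from limma rose to as much as 0.93 for *INSIG2* and 0.64 for *MBTPS1*. *ABCA1*, fitted with no filter in alternatives added after the data were seen, was called with a pseudocount of 0.01 (1.16) and after rescaling to equal sums (1.07). The *INSIG2* change could not be tested when a mean of 5 FPKM was required.

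Rescaling to equal sums called 6282 genes in place of 4027 (668 lower and 5614 higher, against 2263 and 1764), and 1208 lower and 3370 higher without *MIR6087*; the higher genes numbered 2657 with no filter and 1150 where the mean had to reach 5 FPKM. In the lists, rescaling to equal sums called higher 9 COPII, 3 ubiquitin ligase, 5 uptake and 9 LXR genes and 1 fatty acid gene. It called lower 4 fatty acid genes and 1 LXR gene. Without *MIR6087*, 6 COPII, 3 uptake and 3 LXR genes were called higher and 6 fatty acid genes and 1 LXR gene lower. Sterol synthesis genes called lower numbered 12 with equal sums, 16 without *MIR6087* and 16 after quantile normalization, against 18 as deposited. For uptake genes called lower the counts were 6 with equal sums and 7 without *MIR6087*, against 8. Nuclear partners and turnover factors called higher numbered 7 with equal sums, against 5. With a pseudocount of 1, 1 COPII gene was called. With each sample left out in turn, 1 to 2 COPII genes were called higher, 0 to 1 ubiquitin ligase genes were called lower, and the log2 ratio of *SREBF1* to *SREBF2* differed by -0.01 to 0.11.

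Samples of both groups carry replicate numbers, but same-numbered samples correlated at 0.116, 0.0328 and 0.0342 in their deviations from the group means, and not every sample correlated best with its own number. With the replicate block 4033 genes were called, among them all 4027, and the block changed no call of a member. FPKM alone cannot show which scaling is right.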
